A study of Nothobranchius furzeri with 10 samples.

Results

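In the skin of the turquoise killifish, 135 genes were higher in each of 5 libraries from rotenone-treated fish than in any of 5 libraries from DMSO-treated fish. They were chosen by that property from the 18435 genes with enough reads to compare, out of 26739 gene identifiers. They therefore made up 0.732% of the genes compared. A gene was taken when its lowest rotenone value lay above its highest DMSO value on the log2 CPM scale, where CPM is the read count relative to the library total after TMM scaling, which corrects totals for a few genes that take many reads. The groups made the choice, so the lack of overlap and the size of the differences describe the members and test nothing. The identifiers came without names, and 0 of 26739 were found in RefSeq's gene table for NfurGRZ-RIMD1, so the members are described by their values and 2 of them by identifier.

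All 10 libraries were made from skin of male Nothobranchius furzeri, strain MZM-0410p, aged 27 weeks. The fish of one group were given Rotenone at 15 pM and those of the other DMSO. Both groups share strain, sex, age and tissue. The labels give no batch, treatment length or pairing, and whether libraries came from different fish is not stated, so any spread between libraries may be partly technical. The tissue was not checked against skin marker genes, because no symbol was assigned.

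Rotenone binds complex I of the mitochondrial respiratory chain and blocks the passage of electrons from NADH to ubiquinone. Less proton pumping and more leakage of electrons to oxygen are its known effects at inhibiting doses. The turquoise killifish lives in seasonal ponds and is a vertebrate model of ageing, since it matures and ages within months. Fish skin combines a living epidermis and its mucous cells with dermis, scales and pigment cells, and a bulk library averages over all of them. In such a library, more cells of a type and more RNA per cell cannot be told apart.

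Total counts ran from 21415012 to 42253397 in DMSO libraries and from 18801139 to 33406901 in rotenone libraries. The TMM factors ran from 0.975 to 1.09 in DMSO libraries and from 0.856 to 1.03 in rotenone libraries. These ranges overlap, but the rotenone factors were lower on average, at 0.954 ± 0.078 against 1.05 ± 0.046 (SD, n = 5 each). That difference bears on which genes are members, as described below.

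Together the 135 members summed to 10330 ± 305 CPM with DMSO and to 13600 ± 241 CPM with rotenone (SD, n = 5 each). The summed level in the DMSO libraries was 10650, 10175, 9930, 10613 and 10264 CPM in replicates 1 to 5. In the rotenone libraries it was 13458, 13830, 13270, 13639 and 13821 CPM. All 5 rotenone sums lay above all 5 DMSO sums, which the choice of members requires. Before scaling, the members took 0.989% to 1.16% of the reads in DMSO libraries and 1.17% to 1.39% in rotenone libraries. On the unscaled share the highest DMSO library and the lowest rotenone library thus almost met. The 5 members with the most reads carried 63.5% of the summed level on average (59.6% to 64.9% by library), so the sum mostly reports on them.

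A value that weights each member equally is the median over the 135 of the difference from the gene's own DMSO mean. It was 0.56, 0.54, 0.42, 0.51 and 0.45 on the log2 scale in rotenone replicates 1 to 5. Rotenone replicate 3 was the lowest and replicate 1 the highest of these. Over all 18435 genes the same median stayed between -0.001 and 0.04 in the rotenone libraries. The edge of the gap was set by every library in turn. Rotenone replicate 3 was the lowest rotenone library in 33 members, replicate 1 in 32, replicate 5 in 30, replicate 2 in 22 and replicate 4 in 18. DMSO replicate 2 was the highest DMSO library in 32 members and replicate 5 in 23, with the other DMSO replicates at 26 to 28. No library set the edge in more than 24.4% of the members.

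**Figure D1:**
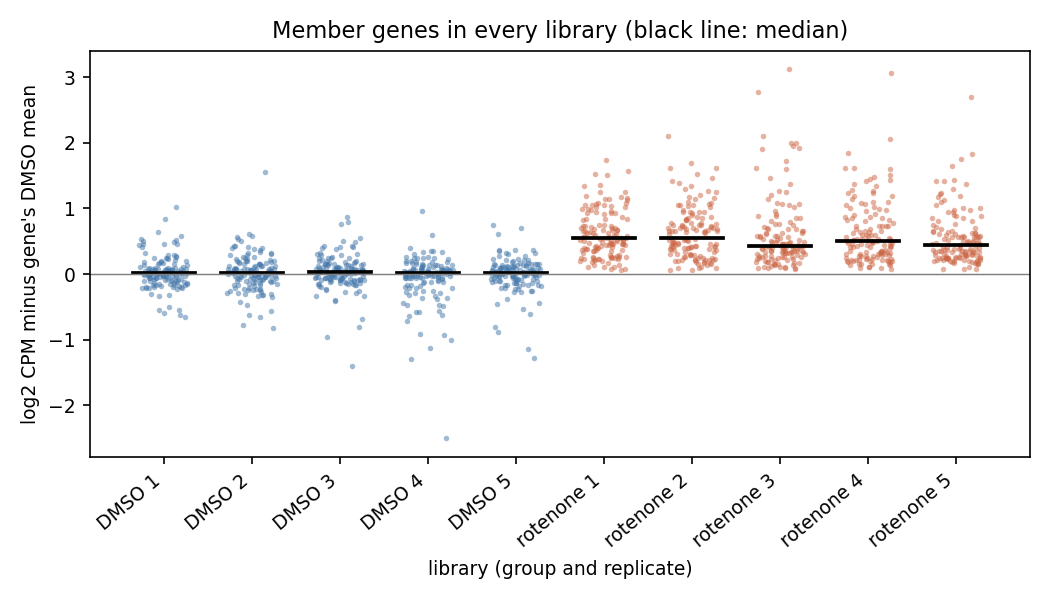
Log2 CPM of each of the 135 members minus the gene's own DMSO mean (vertical axis) in each of the 10 libraries (horizontal axis). Each point is a gene and the black line is the median, which lies between 0.01 and 0.03 in DMSO libraries and between 0.42 and 0.56 in rotenone libraries.

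Most members differed by a modest amount. The median edgeR log2 fold change was 0.54, or 1.46-fold, with the middle 50% of members between 1.26-fold and 1.75-fold and the whole set between 1.08-fold and 3.67-fold. Over all genes compared the median log2 fold change was 0.03. Of the members, 15 were less than 1.2-fold higher, 57 were 1.2-fold to 1.5-fold higher, 41 were 1.5-fold to 2-fold higher, 19 were 2-fold to 3-fold higher and 3 were at least 3-fold higher. A log2 fold change of at least 1 was thus seen in 22 members, against 1.69% of all genes compared. Among the 10216 genes with any positive fold change, 65.3% were under 1.2-fold, whereas 11.1% of the members were. The rule favours larger differences, so this contrast follows from the choice.

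The gap itself, the lowest rotenone value minus the highest DMSO value, was narrow in most members. Its median was 0.08 on the log2 scale, and it passed 0.2 in 24 members. The narrowest gap was 0.0036, in a gene at 70.2 CPM in rotenone replicate 5 and 70.0 CPM in DMSO replicate 1. Its other 4 rotenone values ran from 71.3 to 97.2 CPM and its other 4 DMSO values from 54.7 to 65.3 CPM. The next gene outside the rule had a gap of -0.00041 and a log2 fold change of 0.36. In all, 56 genes lay within 0.05 inside the line and 90 within 0.05 outside it.

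Among the members, the difference was larger in genes with fewer reads. The genes compared were divided into 4 bins of equal size by mean CPM. In the bin with the fewest reads (0.28 to 3.66 CPM) the 29 members had a median of 1.84-fold. The 39 members of the second bin were at 1.46-fold, the 37 of the third at 1.34-fold and the 30 of the bin with the most reads (33.9 CPM and above) at 1.29-fold. Across the 135 members Spearman's rho between log2 fold change and mean CPM was -0.495, a description across genes of the same libraries. Over all genes compared, rho between the size of the log2 fold change and mean CPM was -0.194. The fold change followed the spread within groups even more closely, with a rho of 0.909 across members against 0.455 for the size of the change over all genes. A gene with a wide spread needs a large difference to leave a gap, so the value of 0.909 is largely built in by the rule. Members under 1.2-fold had a median of 27.6 CPM and a median SD within groups of 0.088 (log2 scale). The 3 members at 3-fold or more had medians of 2.06 CPM and 0.774. The trend with reads among members is thus partly built in as well.

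Members were found in every bin of expression, though none was among the very highest, with a maximum of 2258 CPM against 27240 CPM for all genes. They made up 0.629%, 0.846%, 0.803% and 0.651% of the genes in these 4 bins, from the fewest reads to the most. Their median of 12.0 CPM stood beside 12.3 CPM for all genes compared, and 67 of the 135 lay above that median. Per length the median was 4.54 RPKM (CPM per kilobase of gene length) for members and 4.96 RPKM for all genes. Gene length here and below is the length implied by the deposited RPKM values, which need not be the span of the gene. Of the 22 members with a difference of at least 2-fold, 13 came from the bin with the fewest reads, 10 had under 20 reads in at least 1 library and 3 had at least 100 reads in every library. Of all 135 members, 89 had at least 100 reads in every library, 16 had under 20 in some library and 1 had 0 in some library. The lowest count of a gene in any library had a median of 200 reads for members and 178 for all genes compared.

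**Figure D2:**
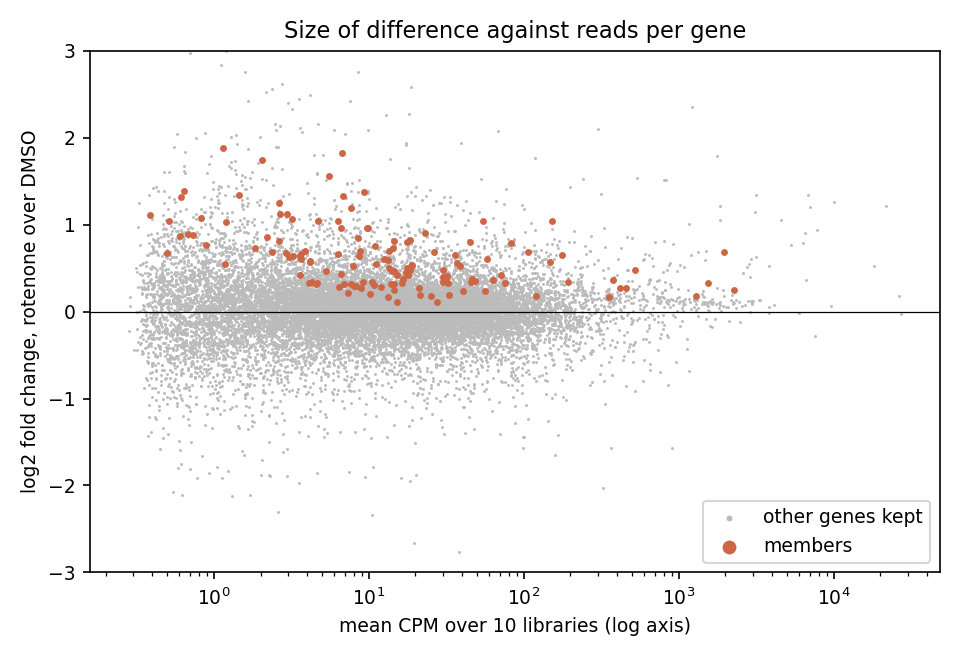
Log2 fold change of rotenone over DMSO from edgeR (vertical axis) against mean CPM over the 10 libraries (horizontal axis, log scale) for the 18435 genes compared, with the 135 members in orange and the other genes in grey. Members lie at 1.08-fold to 3.67-fold and at 0.389 to 2258 mean CPM, with the larger fold changes on the left. The 35 genes beyond a log2 fold change of 3 in either direction are not drawn.

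Nfu_g_1_002916 had the widest gap of the members, 0.54 on the log2 scale, and it was scarce, with 2 to 42 reads per library over a gene of 4427 bases. Its level in DMSO replicates 1 to 5 was 0.478, 0.402, 0.473, 0.088 and 0.311 CPM. In rotenone replicates 1 to 5 it was 0.730, 0.787, 1.37, 0.857 and 0.930 CPM. DMSO replicate 4 was the low library of its group and rotenone replicate 3 the high one. The means were 0.350 ± 0.162 CPM and 0.935 ± 0.255 CPM (SD, n = 5 each). The edgeR estimate, which is not the plain ratio of these means, was 2.61-fold (log2 fold change 1.39 ± 0.37, SE).

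Nfu_g_1_004836 had the most reads, 42495 to 107061 per library over a gene of 3852 bases. Its level was 2328, 2152, 1795, 2027 and 2038 CPM in DMSO replicates 1 to 5 and 2367, 2389, 2545, 2429 and 2508 CPM in rotenone replicates 1 to 5. DMSO replicate 1 came close to rotenone replicate 1, with a gap of 0.02 on the log2 scale, and DMSO replicate 3 was the lowest library. The means were 2068 ± 195 CPM and 2448 ± 76.5 CPM (SD, n = 5 each), a difference of 1.18-fold (log2 fold change 0.24 ± 0.10, SE).

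The widest gap among the 89 members with at least 100 reads in every library was 0.54, almost as wide as that of Nfu_g_1_002916. That gene stood at 5.22, 5.19, 7.42, 8.01 and 7.13 CPM in DMSO replicates 1 to 5. It stood at 11.7, 13.49, 13.48, 13.2 and 12.1 CPM in rotenone replicates 1 to 5. The DMSO libraries fell into 2 low and 3 higher values, while the rotenone libraries lay close together, and the difference was 1.94-fold. The largest fold change among these 89 members was 2.29-fold, in a gene at 3.94 to 5.43 CPM in DMSO libraries. Its rotenone values were 10.4, 11.1, 18.7, 6.19 and 7.04 CPM in replicates 1 to 5, so its size rested most on replicate 3 and least on replicate 4.

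The longest member, at 12583 bases, was 2.05-fold higher and well read, with 2195 to 7994 reads per library. Its DMSO values were 112, 90.5, 113, 96.1 and 88.3 CPM in replicates 1 to 5. Its rotenone values were 285, 162, 148, 165 and 265 CPM. Rotenone replicates 1 and 5 were far above the other 3, and all 5 lay above every DMSO library with a gap of 0.40 on the log2 scale.

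The largest fold change of all, 3.67-fold, belonged to a scarce gene of 880 bases. It was at 0.5002, 1.09, 0.654, 0 and 0.218 CPM in DMSO replicates 1 to 5, where a count of 0 in replicate 4 allows up to 0.131 CPM (3 reads, counting error only). In rotenone replicates 1 to 5 it was at 1.24, 1.63, 3.36, 1.57 and 1.26 CPM. The gap between DMSO replicate 2 and rotenone replicate 1 was 0.18 on the log2 scale, and the log2 fold change was 1.88 with an SE of 0.67. At the other end, the smallest fold change was 1.08-fold, in a gene at 14 to 15.1 CPM in DMSO libraries. Its rotenone values were 15.4 to 17.0 CPM. The member with the smallest spread within groups (SD 0.038 on the log2 scale) was also 1.08-fold higher, at 25.7 to 27.5 CPM against 27.9 to 29.5 CPM.

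**Figure D3:**
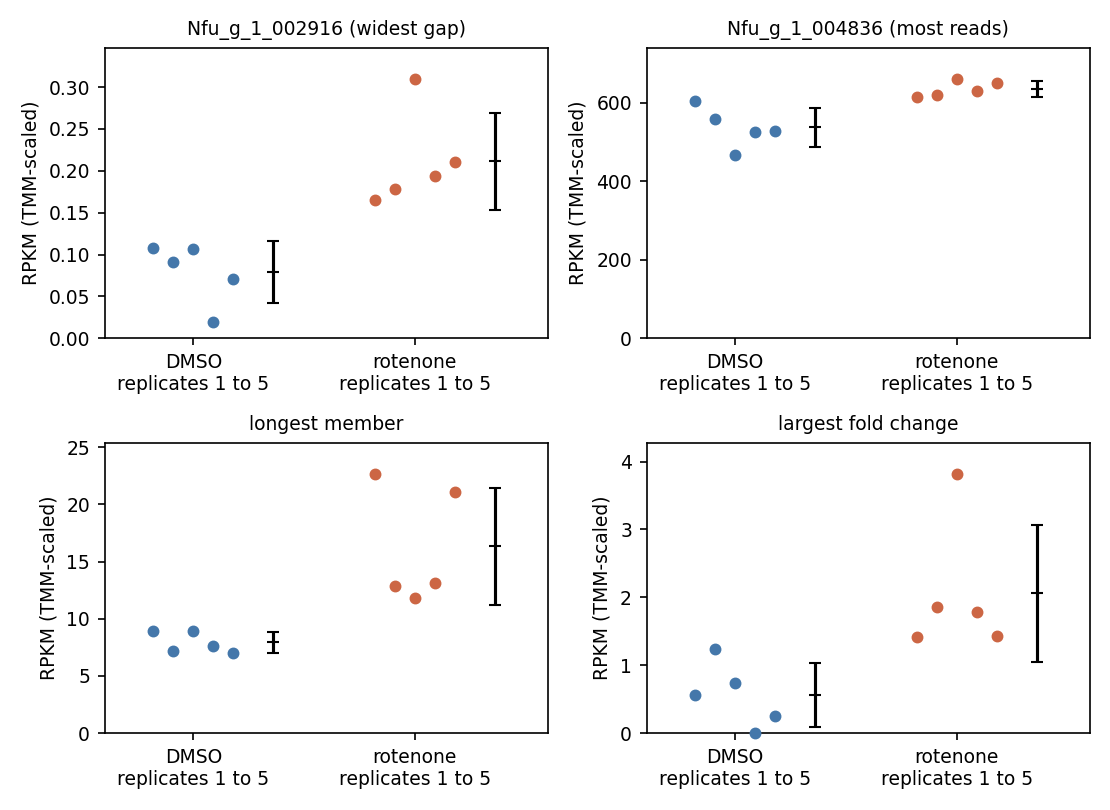
Level per gene length (TMM-scaled RPKM, vertical axes from 0) of 4 members in each library, with replicates 1 to 5 from left to right in each group and the mean ± SD (n = 5) beside them. Levels differ by orders of magnitude between panels, from at most 0.310 RPKM for Nfu_g_1_002916 to 661 RPKM for Nfu_g_1_004836, and no DMSO point reaches the lowest rotenone point of its panel.

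Of the 100 genes with the highest mean share of reads, 4 were members, and they ranked 44, 53, 77 and 98 among the 100. Members made up 0.732% of all genes compared and 0.651% of the bin with the most reads, and the difference was not tested. Nfu_g_1_004836 was the first of these. The second stood at 1351 to 1703 CPM in DMSO libraries and 2210 to 2674 CPM in rotenone libraries, 1.605-fold higher with a gap of 0.38. The third was 1.26-fold higher, with a gap of 0.01 between its highest DMSO library at 1468 CPM and its lowest rotenone library at 1479 CPM. The fourth had the highest level per length of all members, a mean of 1145 RPKM over a gene of 1128 bases, and was 1.13-fold higher at 1369 ± 54.4 CPM against 1214 ± 109 CPM (SD, n = 5 each). The members with many reads thus included 1 wide gap and 3 narrow ones.

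The members were neither mostly short nor mostly long genes. Their median length was 2529 bases, with a middle 50% of 1390 to 4366 bases, against 2717 bases (1356 to 4731) for all genes with a length. The range was 300 to 12583 bases, and 71 of the 135 were shorter than the median of all genes. Members made up 0.651%, 0.890%, 0.781% and 0.607% of the genes in 4 bins of equal size from shortest to longest. Their median differences in these bins were 1.57-fold, 1.54-fold, 1.35-fold and 1.45-fold. Spearman's rho between length and log2 fold change was -0.124 across the members. The shortest member, of 300 bases, stood at 0.327 to 0.587 CPM in DMSO libraries and 0.693 to 0.895 CPM in rotenone libraries. Length was not tested as a source of membership.

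No member passed an adjusted p under 0.05 in edgeR's quasi-likelihood test with Benjamini-Hochberg adjustment over all genes (0 of 135, as for 0% of all genes in that direction). The smallest adjusted p among them was 0.095 in edgeR. At an adjusted p under 0.1 edgeR gave 3 members, which were all of the genes it gave in that direction (0.0163% of genes). At an unadjusted p under 0.05 it gave 122 of the 135 members, and 13 members missed even that. Of all genes compared, 3.73% were higher at this level. DESeq2 called 42 of the members at an adjusted p under 0.05, which is 31.1% of the members and 73.7% of its 57 calls in that direction (0.286% of the genes it tested). It started from all 26739 identifiers with its own scaling and filter, and 19899 genes had an adjusted p. The DESeq2 and edgeR counts thus differ in genes and scaling as well as in test. Limma-voom called 0 of the members at an adjusted p under 0.05, as for 0% of all genes in that direction, and gave 123 at an unadjusted p under 0.05, against 3.39% of all genes. These tests use the contrast that chose the members, so the counts are a description of how the tools rank them.

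Membership depended on how the libraries were scaled. With RLE factors 107 genes were higher in every rotenone library, all of them among the 135, and with upper-quartile factors 114 were, of which 98 were among the 135. With library totals alone only 33 genes were, all among the 135. The genes lower in every rotenone library numbered 192 with TMM (1.04% of genes), 227 with RLE, 186 with upper-quartile scaling and 364 with library totals, so genes that were higher made up 41.3%, 32.0%, 38.0% and 8.31% of the genes without overlap. Library totals lowered the median log2 fold change of all genes from 0.03 to -0.11. Of the 135 members, 133 still had a log2 fold change above 0 with library totals, and the median of the 135 was then 0.40. The members were chosen on the same contrast, so a kept direction follows largely from the choice. The 33 genes that met the rule under all 4 scalings had a median gap of 0.26 and a median log2 fold change of 0.87 with TMM, against 0.05 and 0.42 for the other members. Nfu_g_1_002916 was among the 33 and Nfu_g_1_004836 was not.

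**Figure D4:**
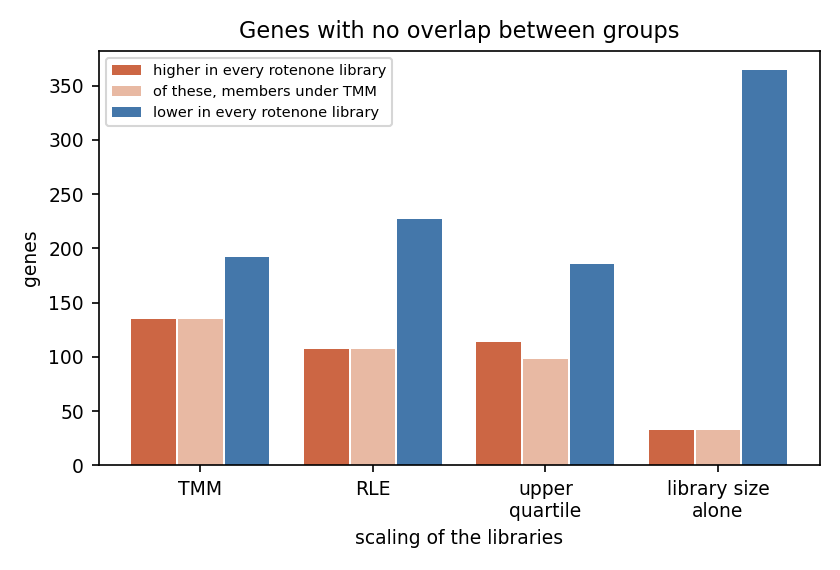
Number of genes without overlap between the groups (vertical axis) under 4 scalings of the libraries (horizontal axis), for genes higher in every rotenone library (orange), those of them that are among the 135 (pale) and genes lower in every rotenone library (blue). The orange bars fall from 135 with TMM to 33 with library totals while the blue bars go from 192 to 364.

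The same rule was applied with a library left out, and the values of that library, which the rule then did not use, were read. Filter and scaling still used all 10 libraries, here and for the pairs below. With 1 rotenone library left out, 184 to 346 genes were higher in the remaining 4 than in all DMSO libraries. The library left out was above every DMSO value in 39.0% of these for replicate 1, 60.0% for replicate 2, 63.1% for replicate 3, 73.4% for replicate 4 and 53.4% for replicate 5. The same libraries were above every DMSO value in 18.7%, 27.0%, 17.8%, 17.5% and 14.3% of all genes. Rotenone replicate 1 followed the others least. In the 346 genes chosen without it, the other 4 libraries were a median of 0.66 above the DMSO mean (log2 scale) and replicate 1 was 0.06 above it. For replicate 4 these medians were 0.48 and 0.35. With 1 DMSO library left out, 186 to 326 genes were chosen, and the library left out lay below every rotenone value in 41.4% (replicate 4) to 72.6% (replicate 1) of them, against 17.2%, 18.3%, 15.2%, 18.2% and 15.6% of all genes for DMSO replicates 1 to 5. The group it was read against had helped to choose the genes, so shares well above those of all genes follow from the choice alone. The shares of all genes are therefore no yardstick for them, and the level that the choice alone gives was not worked out. In every case the genes that met the condition were the 135 members themselves. Each share thus varies only with the number of genes chosen without that library.

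Leaving out 1 library of each group at once means that neither library read had helped to choose the genes. Both were still part of the filter and scaling. In each of the 25 possible pairs, 249 to 754 genes were chosen by the remaining 4 against 4, and the 2 libraries left out were compared with each other. The left-out rotenone library was higher than the left-out DMSO library in 32.9% to 76.7% of the chosen genes, with a median over pairs of 54.1%. For all genes compared, the same pairs gave 48.6% to 54.2%, with a median of 51.5%. The share was above that of all genes in 14 of 25 pairs and not above it in the others. The chosen genes differed by a median of 0.39 to 0.70 (log2 scale) in the 8 libraries that chose them and by -0.38 to 0.25 in the pair left out, with a median over pairs of 0.05. Over all genes compared, the median difference in the same pairs ran from -0.02 to 0.06, with a median over pairs of 0.01. The pairs share libraries and genes are not replicates, so no p is given.

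The outcome differed from library to library. The 5 pairs with DMSO replicate 1 gave 54.1% to 73.9%, and those with DMSO replicate 5 gave 50.2% to 71.9%. The pairs with DMSO replicate 2 gave 32.9% to 56.6% and those with rotenone replicate 1 gave 32.9% to 54.1%. Pairs with DMSO replicate 4 were the most uneven, at 32.9% with rotenone replicate 1 and 76.7% with rotenone replicate 2.

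**Figure D5:**
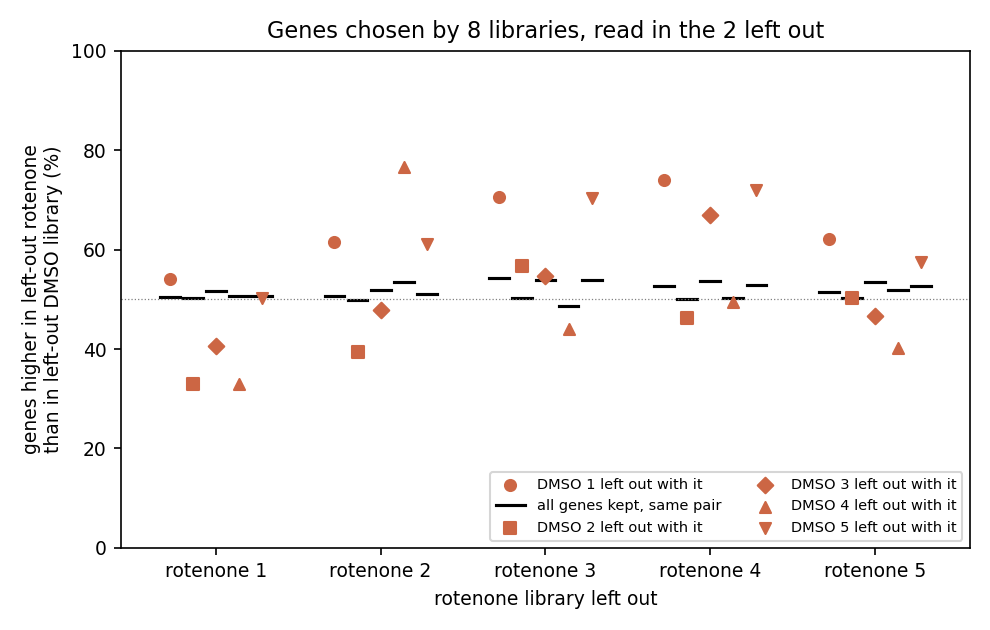
Share of genes (percent, vertical axis) in which the left-out rotenone library (horizontal axis) was higher than the DMSO library left out with it (symbols), for genes chosen by the other 8 libraries. Black bars give the share for all 18435 genes in the same pair, between 48.6% and 54.2%, and the orange symbols range from 32.9% to 76.7% on both sides of them.

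Within groups the members showed little shared movement. Each gene's deviations from its group means were correlated between genes over the 10 libraries, which share depth and scaling. The mean Pearson correlation over all pairs of members was 0.013, and it was -0.005 within the DMSO libraries and 0.022 within the rotenone libraries. Over all pairs of genes compared it was 0.0006. Correlations above 0.8 made up 1.02% of the pairs of members and those below -0.8 made up 0.232%, beside 2.16% and 1.43% of all pairs. For the 192 genes lower in every rotenone library the mean was 0.114, with 2.09% of pairs above 0.8, and the difference between these sets was not tested. The rule favours genes that vary little within groups, so the members' correlations are not free of the choice.

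The main differences between libraries of a group were also read in the members. The main axis of the deviations of all genes held 30.9% of their variance, and 8.15% of the members correlated with it beyond 0.7 in either direction, against 26.9% of all genes. For the second axis, on which DMSO replicate 2 had the highest score, the shares were 7.41% and 12.1%. The members' own main axis held 19% of their variance and set DMSO replicates 1 and 2 (scores 0.38 and 0.53) against DMSO replicate 4 (-0.51) and rotenone replicate 2 (-0.36). The median SD within groups was 0.20 on the log2 scale for members and 0.35 for all genes, and 26 of the 135 members lay above the median of all genes. A small spread makes a gap easier to reach, so the rule favours genes that vary little within groups. The lower shares of members on the main axes of all genes may therefore be partly built in by the rule.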

How the data were processed

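The authors deposited raw read counts per gene and RPKM values for 10 libraries. Per the submitters' processing notes, the tools were featureCounts 1.4.6-p4, STAR 2.4.1d and bcl2fastq 1.8.4. Which build, annotation and strand setting they used is not given in the sources used here. Counts of genes that overlap or have near-identical copies are therefore uncertain. The deposited RPKM values matched the counts only when library totals were assigned in a cycle down the rows (median CV of the implied length 0.0019% over 4793 genes, against 31.4% with each library's own total). Gene lengths were recovered on that basis, for 18433 of 18435 genes and all 135 members, and RPKM in the text is recomputed from counts. Which part of each gene these lengths cover is not given.

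Genes were kept by filterByExpr (minimum count 10), which held 99.9% of reads, and scaled by TMM. Log2 CPM used a prior count of 2. Fold changes come from edgeR 4.0.16 (glmQLFit, robust=TRUE, no covariate, R 4.3.3), with Benjamini-Hochberg adjustment over all genes kept. The scripts were tested on simulated data with a larger change than any member shows, in genes that were not scarce. That test does not bear on small differences or scarce members. DESeq2 1.42.0 and limma 3.58.1 were alternatives, as were other scalings, filters and prior counts and each library left out. Leaving out pairs was chosen after the data were seen. The members and tests were chosen with earlier results of these data known. The 2 identifiers printed are the member with the widest gap and, of the others, the one with the most reads. Other members were picked for an extreme value, some after values were seen. With 5 libraries per group the precision of each value is limited, and counting floors cover counting error only.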

Additional observations from a re-analysis of the deposited data

Results flagged for a closer look

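In 3 of 34 sets of 5 values, 1 library stood far from the rest of its group. In sets that were not selected this happens by chance in about 1 set in 20. The 3 sets belong to members picked for their fold change, so that rate need not hold for them. Rotenone replicate 3 had a log2 CPM of 1.78 for the member with the largest fold change, while the other 4 rotenone libraries lay between 0.39 and 0.77. The same library had a log2 CPM of 4.09 for the member with the smallest fold change, against 3.95 to 3.97 in the other 4. DMSO replicate 3 had a log2 CPM of -0.98 for the member at the middle of the fold changes, against 0.16 to 0.25 in the other 4 DMSO libraries. That gene rested on 12 to 51 reads per library.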

How the results depend on the processing

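The 135 genes became 33 with library-size scaling, 33 with RPKM recomputed from counts (log2 of RPKM plus 1) and 6 with the deposited RPKM, of which 2 were among the 135. The first 2 of these use library totals without a scaling factor, and the third used totals that did not match the libraries. With 1 library left out and filter and scaling repeated, 143 to 349 genes met the rule, of which 105 to 135 were among the 135. Leaving out DMSO replicate 2, 3 or 4 gave 264, 260 or 272 genes, and leaving out rotenone replicate 1, 3 or 5 gave 349, 215 or 236. Fewer libraries make the rule easier to meet. Prior counts of 0.5 and 5 left 135. No count filter gave 123 genes, of which 112 were among the 135. A mean of at least 50 counts gave 126, of which 117 were among the 135, and it dropped Nfu_g_1_002916.

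The members' median log2 fold change of 0.54 was 0.40 with library-size scaling and 0.49 with a mean of at least 50 counts, where 121 members were tested, and 0.49 to 0.56 over the sets of 9 libraries. With DESeq2, which used its own filter and scaling, the 0 edgeR calls among members became 42. It called 0.286% of all genes it tested in that direction. In edgeR the calls among members became 3 at an adjusted p under 0.1 (0.0163% of all genes). They stayed at 0 (lowest and highest) with each library left out. These tests use the contrast that chose the members, so the counts only describe how the tools rank them. The mean correlation between members was 0.017 with Spearman's method and 0.0092 to 0.017 with a library left out. With filter and scaling not repeated, the median share of genes in which a left-out library kept the direction was 78.2% with 1 library left out. By library the share ran from 53.5% to 90.8%, with 52.1% for all genes. The group it was read against had helped to choose the genes, so a share well above that of all genes follows from the choice alone. The share of all genes is therefore no yardstick for it. With a pair left out the median share was 54.1% (51.5% for all genes). The log2 fold change of Nfu_g_1_002916 ran from 1.15 to 1.52, with an adjusted p of 0.046 in DESeq2 and up to 0.65 elsewhere. That of Nfu_g_1_004836 ran from 0.10 to 0.27 and passed the threshold in no alternative. No paired analysis was possible because the labels pair no libraries.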
